A study of Mus musculus with 6 samples.

Results

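The DNA replication machinery is the set of proteins that opens, copies and closes the double helix once per cell cycle. It was followed here through 46 named genes among the 17567 rows of each count table, matched by NCBI Gene number to RefSeq symbols. All 46 had a row, and all 46 passed the filter on low counts. The cells were immature dendritic cells, which sample antigen before they mature, cultured from bone marrow of male C57BL/6 mice aged 6 weeks with GM-CSF and interleukin-4 until day 6. Per the labels' protocols they were purified with CD11c beads, and the treated group then received 100 µM hydrogen peroxide (H2O2) over 24 h. The labels name no agent for the control group. Whether samples came from separate mice or cultures is not stated, so each p-value measures the spread among these libraries only, and that spread may be technical.

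The labels give 3 samples per group, but the file of H2O2 replicate 3 repeated that of H2O2 replicate 1 in all 17567 values. It was counted once, which left 3 control and 2 H2O2 libraries of 16232604 to 16672491 estimated counts. The libraries also fell into sets that the treatment does not separate. Y-linked transcripts summed to 106 CPM (counts scaled to library size) for control replicate 1 and to 96.4 CPM for H2O2 replicate 1, called set A. They summed to 0.12 to 0.427 CPM in the other 3 libraries, called set B, although the labels give male mice for every sample. H2O2 replicate 1 was therefore compared with control replicate 1, and H2O2 replicate 2 with control replicates 2 and 3. The CD11c gene Itgax stood at 1473 to 2177 CPM and the invariant chain gene Cd74 at 2243 to 3136 CPM in every library, and Cd209a did not pass the filter. Of the 11 dendritic cell markers tested, 6 fell and none rose under H2O2 at an adjusted p of at most 0.05 by edgeR. Of all genes tested, 4.61% fell and 3.93% rose. The markers' sum ran from 9670 to 10410 CPM in the controls against 7826 and 8939 CPM under H2O2. Between the sets, 4 of the 11 markers were higher and 3 lower in set A. Ccr7 stood at 1466 and 1275 CPM in set A and at 356.5 to 445 CPM in set B.

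Replication begins in G1, when the origin recognition complex, Cdc6 and Cdt1 load the ring of Mcm2 to Mcm7 onto DNA, a step called licensing. At the start of S phase the kinase of Dbf4 and cyclin E-dependent kinase fire the origins, and Cdc45 and the GINS complex turn the ring into an active helicase. Primase and the polymerases copy the strands, the Pcna clamp holds them in place, and ribonucleotide reductase and its partners supply the deoxynucleotides. Many of these genes are transcribed at the G1/S border by E2F factors, and dendritic cells grown with GM-CSF derive from precursors that divide in culture.

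Promoter stretches are shown for the members with an E2F match before a RefSeq start site, since E2F factors are the known regulators named above. RefSeq start-site windows (GRCm38.p6, 250 bases before to 50 after the start) were available for 37 of the 46 genes. The E2F consensus was searched on both strands as TTTCCCGC, TTTGGCGC, TTTGCCGC and TTTCGCGC, which can overlap one another. It was found in the window of 14 of the 37 genes (37.8%), against 4.8% of the 9868 tested genes with a window. The match lay before the start site of its window in 9 genes. That start site was not always the outermost end of the gene. The stretches of Orc1, Cdc6, Mcm7, Pola1 and Uhrf1 lay inside the gene's own annotated span, which for Orc1 begins at position 108575705. These 9 stretches follow, 5′ to 3′ on the gene's strand, with the matches in capitals.
Orc1 (chr4:108579397-108579453, + strand): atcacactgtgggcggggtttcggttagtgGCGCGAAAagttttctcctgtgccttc
Cdc6 (chr11:98907983-98908050, + strand): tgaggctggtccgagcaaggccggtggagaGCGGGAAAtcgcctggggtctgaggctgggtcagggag
Mcm5 (chr8:75109326-75109397, + strand): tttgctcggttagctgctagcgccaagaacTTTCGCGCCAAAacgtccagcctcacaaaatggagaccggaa
Mcm6 (chr1:128359715-128359845, - strand): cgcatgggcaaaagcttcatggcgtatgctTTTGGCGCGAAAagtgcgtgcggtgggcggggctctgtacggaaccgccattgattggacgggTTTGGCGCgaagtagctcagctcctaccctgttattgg
Mcm7 (chr5:138172011-138172078, - strand): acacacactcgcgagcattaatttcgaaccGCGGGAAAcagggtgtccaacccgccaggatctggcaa
Gins3 (chr8:95633488-95633555, + strand): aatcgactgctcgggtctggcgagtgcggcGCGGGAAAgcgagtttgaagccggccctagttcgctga
Pola1 (chrX:93632256-93632323, - strand): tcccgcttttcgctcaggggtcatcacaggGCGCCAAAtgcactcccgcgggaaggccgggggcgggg
Rfc3 (chr5:151651209-151651248, - strand): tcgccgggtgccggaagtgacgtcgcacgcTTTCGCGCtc
Uhrf1 (chr17:56304098-56304165, + strand): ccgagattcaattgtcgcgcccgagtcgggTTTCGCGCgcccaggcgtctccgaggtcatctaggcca
Licensing genes gave 7 of the 14 genes with a match (of 9 licensing genes with a window), and none of the 5 nucleotide supply genes had one. Of the members with a window, 7 of 22 called lower under H2O2 and 7 of 15 not called held a match. In Mcm5 and Mcm6 a pair of matches on opposite strands overlapped to form 1 run of capitals. A match is a run of letters and was not tested for binding. The CCAAT box, searched as CCAAT on both strands, was in 22 of the 37 genes with a window (59.5%), against 43.5% of tested genes with a window.

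The replication genes were lower after H2O2. With a term for the set, edgeR's quasi-likelihood test called 24 of the 46 genes lower and none higher at an adjusted p of at most 0.05, against 4.61% of the 12209 genes tested called lower and 3.93% called higher. All 46 log2 changes were negative, from -1.38 to -0.07, with a median of -0.61 where the median of all tested genes was 0.01. By at least 1 on the log2 scale fell 5 genes (against 1.6% of all genes): Pole, Mcm10, Rrm2, Cdc45 and Tk1. The calls lay close to the threshold, with 10 of the 24 at an adjusted p of 0.04 or above and 3 uncalled genes (Orc6, Mcm6 and Mcm7) under 0.06. Without the set term edgeR called 0 of the 46 and 0 of all genes, with 6 members at an unadjusted p under 0.05 (against 3.19% of all genes lower at that p), and with no filter on low counts it called 0 members (smallest adjusted p 0.0505). Left-out libraries also moved the count, to 0 without H2O2 replicate 2, 9 without H2O2 replicate 1 and 11 without control replicate 3. In bulk RNA, fewer cells in S phase and less replication RNA per cell cannot be told apart.

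**Figure D1:**
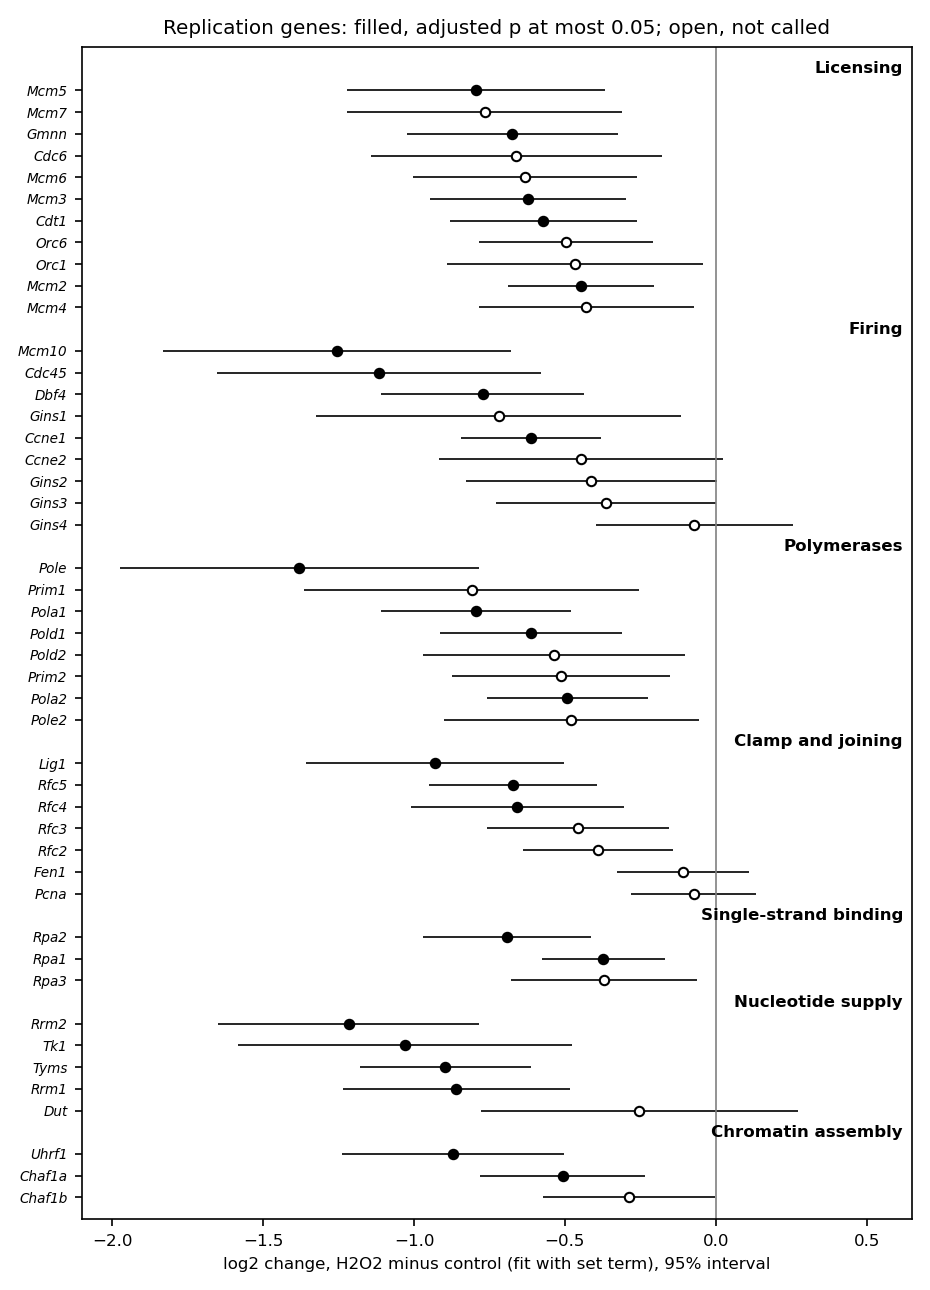
Log2 change of each of the 46 replication genes, H2O2 minus control, from the edgeR fit with the set term (x axis), grouped by role and ordered within a role; bars are 95% intervals, filled points were called at an adjusted p of at most 0.05. Points lie left of 0 throughout, from -1.38 for Pole to -0.07 for Gins4, and the 24 filled points occur in every role.

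These genes also differed between libraries of the same group. Summed over the 46 genes, control replicates 1 to 3 held 1924, 1088 and 1400 CPM, and H2O2 replicates 1 and 2 held 1314 and 838.7 CPM. The sum was lower in each H2O2 library than in the controls of its own set, while H2O2 replicate 1 lay above control replicate 2. In the same fit 31 of the 46 genes were higher in set A (against 19.1% of all genes) and 1, Ccne1, was lower (against 16.9%), with a median difference of 0.55 on the log2 scale. The 2 control libraries of set B differed as well: 42 of the 46 genes were higher in control replicate 3 than in control replicate 2, by a median ratio of 1.29 (range 0.976 to 1.74). The share of all tested genes higher in control replicate 3 was not computed, so this count has no background beside it. Against H2O2 replicate 2, the median ratio was 1.35 (range 0.853 to 2.71) for control replicate 2 and 1.68 (range 1.07 to 4.17) for control replicate 3. In set A, control replicate 1 over H2O2 replicate 1 gave a median ratio of 1.5 (range 0.934 to 2.22). The ratio against control replicate 2 was thus close to that between the untreated libraries of set B.

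Within sets, H2O2 lay below every control of its own set in 42 of the 46 genes, a pattern found in 28% of all tested genes. The 4 exceptions were Gins4, Ccne2, Pcna and Dut. Both H2O2 libraries lay below all 3 controls in 16 of the 46, against 10.7% of all tested genes. Set A gave a median log2 change of -0.58 and set B one of -0.62. The interaction of set and H2O2, fitted by edgeR with 1 residual degree of freedom, was called for 0 of the 46 genes, against 0.0164% of all genes, so it says little on whether the sets responded alike. DESeq2 and limma-voom also called 0, and 1 gene, Rfc2, had an unadjusted p under 0.05, against 13.7% of all genes.

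**Figure D2:**
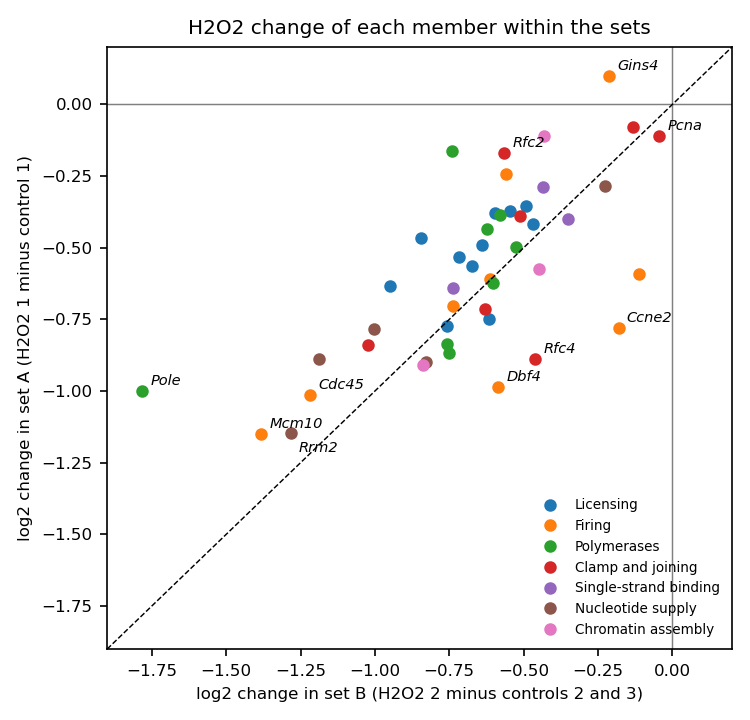
Log2 change of each replication gene under H2O2 in set B (x axis, H2O2 replicate 2 minus control replicates 2 and 3) against set A (y axis, H2O2 replicate 1 minus control replicate 1), coloured by role, with the line of equal change dashed. Gins4 is the 1 gene above 0 in set A (0.10), and Pole is the farthest from 0 in set B (-1.78, with -1.001 in set A).

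Of the 11 licensing genes, 5 fell (Cdt1, Gmnn, Mcm2, Mcm3 and Mcm5), and in all 11 H2O2 lay below each control of its own set. Of all tested genes, 4.61% fell and 28% showed that pattern, shares that apply to the counts of every role below. Their median log2 change was -0.62, from -0.79 for Mcm5 to -0.43 for Mcm4. The ring subunit gene Mcm5 was measured at 64.5, 24.8 and 37.3 CPM in control replicates 1 to 3 and at 41.5 and 16.1 CPM in H2O2 replicates 1 and 2. H2O2 replicate 1 was thus above both controls of set B, so the groups overlapped although each set showed a decrease. The fitted change was 1.74-fold lower (log2 -0.79 ± 0.181 SE, adjusted p = 0.0451 by edgeR), and Mcm5 was also 2.26-fold higher in set A. Mcm6 had the most counts of the licensing genes, with 120.3, 55.2 and 79.9 CPM in the controls and 83.1 and 41.1 CPM under H2O2. Its change of -0.63 ± 0.156 was not called (adjusted p = 0.0544 by edgeR), though 4 of 12 alternative settings called it, DESeq2 with an adjusted p of 0.0012.

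The 6 ring subunits are loaded in equal numbers, and their transcripts differed modestly per length. Averaged over the 5 libraries they ran from 10.5 CPM per kb of exon (Mcm2) to 20.4 CPM per kb (Mcm3). Their log2 changes were all negative: -0.45 for Mcm2, -0.62 for Mcm3 and -0.43 for Mcm4, next to -0.79, -0.63 and -0.77 for Mcm5, Mcm6 and Mcm7. Whether these changes differ from one another was not tested. Mcm7 overlaps the protein-coding gene Ap4m1 and 3 microRNA genes in the RefSeq annotation. Reads may likewise be shared by 12 other members that overlap a protein-coding gene, among them Orc1 with Prpf38a, Cdc45 with Ufd1, Pole2 with Klhdc1, Rfc4 with Eif4a2, Fen1 with Tmem258, Lig1 with Zswim9, Rpa1 with Smyd4, Tk1 with Afmid and Chaf1a with Ubxn6.

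Gmnn encodes geminin, which binds Cdt1 and blocks a second round of licensing. It was measured at 27.2, 19.8 and 26.3 CPM in the controls and at 16.2 and 15.03 CPM under H2O2. Every H2O2 value was below every control value, and Gmnn did not pass the test between the sets (adjusted p = 0.342 by edgeR). It fell 1.60-fold (log2 -0.67 ± 0.147 SE, adjusted p = 0.0403 by edgeR), a call that held in 5 of 12 alternative settings. Cdt1, the loading factor that geminin holds in check, fell by 0.57 ± 0.131 on the log2 scale. Cdc6, the ATPase of the loading step, stood at -0.66 ± 0.203 and Orc6, a small origin recognition subunit, at -0.50 ± 0.122, neither called.

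Orc1, the origin recognition subunit whose protein is cell cycle regulated, was scarce, with 5.06, 4.41 and 5.06 CPM in the controls and 3.90 and 3.24 CPM under H2O2. The groups did not overlap, but the change of -0.47 ± 0.179 was not called (adjusted p = 0.148 by edgeR). The other origin recognition genes were not members. Orc2, Orc3, Orc4 and Orc5 were not called either, at 0.10, 0.00, 0.10 and -0.08 on the log2 scale.

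**Figure D3:**
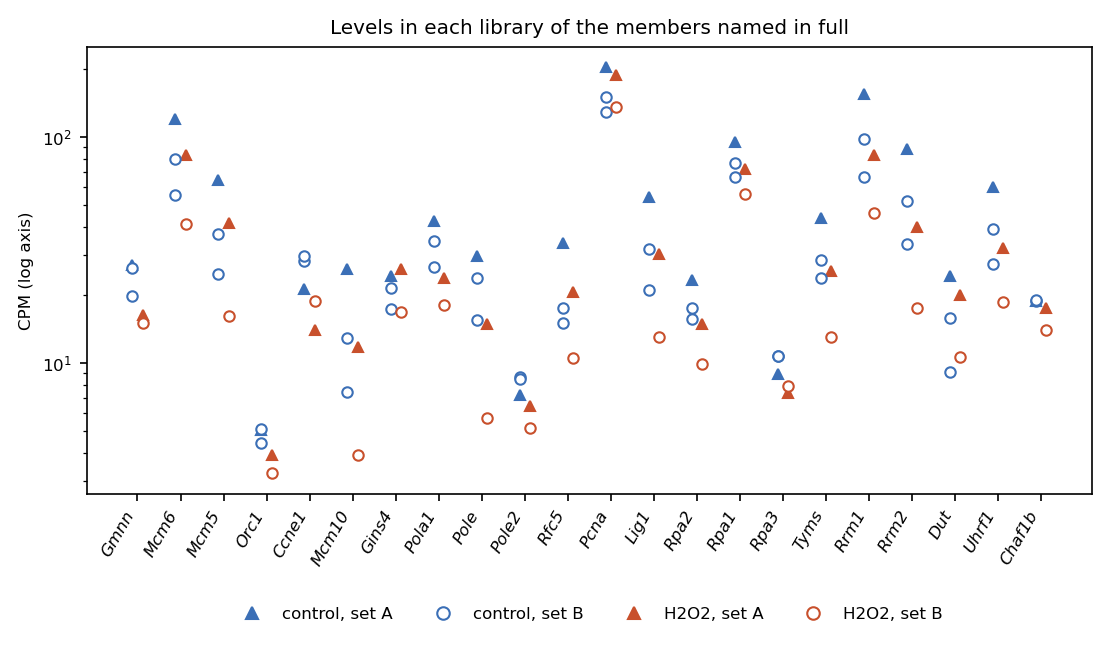
CPM (y axis, log scale) in each of the 5 libraries for the 22 replication genes given in full, blue for control and orange for H2O2, filled triangles for set A and open circles for set B. H2O2 symbols lie below the control symbols of the same shape in all but Gins4, Pcna and Dut, and filled triangles often lie above the open circles of the same colour.

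Of the 9 firing genes, 4 fell: Mcm10, Cdc45, Dbf4 and Ccne1. Mcm10, a scaffold of helicase activation (chromosome 2, 4990724 to 5012791, GRCm38.p6), was measured at 26.0, 7.43 and 12.9 CPM in the controls and at 11.7 and 3.89 CPM under H2O2. Each set showed a decrease, and H2O2 replicate 1 lay above control replicate 2. The fitted change was 2.39-fold lower (log2 -1.26 ± 0.243 SE, adjusted p = 0.0308 by edgeR). Cdc45, the helicase cofactor that travels with the fork, fell 2.17-fold (log2 -1.12 ± 0.226), and Dbf4, the activating subunit of the Cdc7 kinase, fell 1.71-fold (log2 -0.77 ± 0.142). Cdc7 itself, which is no member, stood at -0.46 ± 0.181 (adjusted p = 0.158 by edgeR).

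Ccne1, the cyclin that starts S phase with Cdk2, had the lowest p of the firing genes. It was measured at 21.2, 28.1 and 29.6 CPM in the controls and at 13.9 and 18.9 CPM under H2O2. All H2O2 values lay below all control values, and Ccne1 was the 1 member lower in set A, by 0.44 ± 0.0967 on the log2 scale. It fell 1.53-fold (log2 -0.61 ± 0.0974 SE, adjusted p = 0.0233 by edgeR), and both sets gave -0.61. Its relative Ccne2 stood at -0.45 ± 0.198, and was not called, and set A gave -0.78 against -0.18 for set B.

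The 4 subunits of the GINS complex, which joins Cdc45 to the ring, were not called. Gins1 stood at -0.72 ± 0.255, Gins2 at -0.41 ± 0.175 and Gins3 at -0.36 ± 0.154. Gins4 was measured at 24.3, 17.3 and 21.5 CPM in the controls and at 26.0 and 16.7 CPM under H2O2, so H2O2 was higher than control in set A and lower in set B. Its log2 change was -0.07 with a 95% interval of -0.40 to 0.26. The sign of Gins4 turned in 4 of 12 alternative settings, to at most 0.0964.

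Of the 8 polymerase and primase genes, 4 fell (Pola1, Pola2, Pold1 and Pole). In 6 of the 8 every H2O2 value lay below every control value, against 10.7% of all tested genes. Pole, the catalytic subunit of the leading-strand polymerase epsilon (NCBI Gene 18973, chromosome 5, 110286319 to 110337468), showed the largest decrease of all 46 genes. It was measured at 29.6, 15.5 and 23.8 CPM in the controls and at 14.8 and 5.70 CPM under H2O2. The fitted change was 2.60-fold lower (log2 -1.38 ± 0.251 SE, adjusted p = 0.0270 by edgeR), and the change was -1.001 within set A against -1.78 within set B. The difference between the sets was 0.78 ± 0.410, and with 1 residual degree of freedom that fit could not settle whether it exceeds error.

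Pola1, the catalytic subunit of the priming polymerase alpha, lies on the X chromosome. It was measured at 42.4, 26.4 and 34.5 CPM in the controls and at 23.7 and 18.0 CPM under H2O2, with no overlap between the groups. It fell 1.73-fold (log2 -0.79 ± 0.132 SE, adjusted p = 0.0240 by edgeR). Pold1, the catalytic subunit of the lagging-strand polymerase delta, fell 1.53-fold in the fit with the set term. Its group means, taken over both sets, were 27.9 ± 4.32 CPM (SD, n = 3) in the controls and 18.8 ± 2.24 CPM (SD, n = 2) under H2O2. Accessory and primase subunits showed smaller or noisier differences. Pola2 fell by 0.49 ± 0.113, a call that 5 of 12 alternatives kept, while Prim1 stood at -0.81 ± 0.234, Prim2 at -0.51 ± 0.152 and Pold2 at -0.54 ± 0.183. Pole2, the second subunit of polymerase epsilon, had 7.21, 8.64 and 8.48 CPM in the controls and 6.44 and 5.12 CPM under H2O2. The groups did not overlap, and its change of -0.48 ± 0.178 was not called (adjusted p = 0.139 by edgeR).

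Of the 7 clamp, clamp loader and strand-joining genes, 3 fell: Rfc4, Rfc5 and Lig1. Pcna, the sliding clamp (NCBI Gene 18538, chromosome 2, 132249286 to 132253180), was by far the most abundant member per length. It averaged 106 CPM per kb of exon, with 84.6 in its lowest library, and the next gene, Rrm1, averaged 22.4. Pcna was measured at 203.4, 128.4 and 150.8 CPM in the controls and at 188.3 and 135.4 CPM under H2O2, inside the control range. Its log2 change was -0.07 ± 0.0876 with a 95% interval of -0.28 to 0.13, and it was 1.43-fold higher in set A. The interval leaves out a fall of the median member's size, -0.61. Pcna has named pseudogenes in RefSeq and may share reads with them, as may Tyms.

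Fen1, the nuclease that trims Okazaki fragments on the clamp, was measured at 42.4, 31.5 and 36.2 CPM in the controls and at 40.2 and 30.9 CPM under H2O2, and the groups overlapped. Its change was -0.11 with a 95% interval of -0.33 to 0.11. Lig1, the ligase that seals the fragments, was measured at 53.9, 21.0 and 31.9 CPM in the controls and at 30.2 and 13.0 CPM under H2O2. It fell 1.91-fold (log2 -0.93 ± 0.180 SE, adjusted p = 0.0308 by edgeR) within the sets, and H2O2 replicate 1 lay above control replicate 2. Lig1 was also 2.14-fold higher in set A.

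The loader opens the clamp with 1 large and 4 small subunits. Among the small ones, Rfc5 was measured at 33.9, 14.99 and 17.5 CPM in the controls and at 20.6 and 10.5 CPM under H2O2 and fell 1.59-fold (log2 -0.67 ± 0.118 SE, adjusted p = 0.0257 by edgeR). H2O2 replicate 1 lay above both controls of set B. Rfc4 was called at -0.66 ± 0.148, but in only 3 of 12 alternatives, and the call was lost with any 1 library left out (-0.47 and adjusted p = 0.122 by edgeR without control replicate 1). Rfc3 stood at -0.46 ± 0.128 and Rfc2 at -0.39 ± 0.105. For Rfc2, set A gave -0.17 against -0.57 for set B. The large subunit gene Rfc1, no member, stood at -0.10 ± 0.0665.

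The 3 subunits of replication protein A, which coats single-stranded DNA in replication and repair, gave 2 decreases. Rpa2 was measured at 23.3, 15.6 and 17.5 CPM in the controls and at 14.9 and 9.91 CPM under H2O2. The groups did not overlap, and Rpa2 fell 1.62-fold (log2 -0.69 ± 0.117 SE, adjusted p = 0.0244 by edgeR). Rpa1 fell by a smaller amount, 1.29-fold, from 94.8, 66.5 and 76.6 CPM to 71.8 and 56.1 CPM (log2 -0.37 ± 0.0853, adjusted p = 0.0455 by edgeR), with H2O2 replicate 1 above control replicate 2. Rpa3 stood at -0.37 ± 0.130, with 8.95, 10.7 and 10.7 CPM in the controls and 7.33 and 7.90 CPM under H2O2.

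Of the 5 nucleotide supply genes, 4 fell (Rrm1, Rrm2, Tyms and Tk1), with the lowest median of the roles, -0.90. All 5 were also higher in set A (against 19.1% of all genes), by a median of 0.94. Rrm2, the S-phase subunit of ribonucleotide reductase (NCBI Gene 20135, chromosome 12, 24708254 to 24714146), was measured at 88.5, 33.7 and 51.8 CPM in the controls and at 40.0 and 17.6 CPM under H2O2. H2O2 replicate 1 lay above control replicate 2. Rrm2 fell 2.32-fold (log2 -1.22 ± 0.182 SE, adjusted p = 0.0213 by edgeR), and set A gave -1.15 against -1.28 for set B. Rrm1, the large subunit, fell 1.81-fold, from 154.8, 66.5 and 97.8 CPM to 83.1 and 46.2 CPM (log2 -0.86 ± 0.158). The p53-induced small subunit Rrm2b, no member, stood at 0.01 ± 0.0829, with 25.8, 38.1 and 37.6 CPM in the controls and 24.6 and 39.6 CPM under H2O2.

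Tyms, which makes thymidylate, had the lowest p of all 46 genes. It was measured at 43.8, 23.8 and 28.4 CPM in the controls and at 25.4 and 13.0 CPM under H2O2, lower in each set with H2O2 replicate 1 between the controls of set B. It fell 1.86-fold (log2 -0.90 ± 0.120 SE, adjusted p = 0.0177 by edgeR). Tk1, the salvage thymidine kinase, fell 2.04-fold (log2 -1.03 ± 0.233). Dut, which removes dUTP before it can enter DNA, was measured at 24.2, 9.06 and 15.8 CPM in the controls and at 19.9 and 10.6 CPM under H2O2. H2O2 replicate 2 was above control replicate 2, and the log2 change was -0.25 with a wide 95% interval, -0.78 to 0.27.

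Of the 3 genes that rebuild chromatin behind the fork, 2 fell. Uhrf1, which recruits the maintenance DNA methyltransferase to new DNA, was measured at 60.3, 27.4 and 39.1 CPM in the controls and at 32.1 and 18.6 CPM under H2O2, with H2O2 replicate 1 above control replicate 2. It fell 1.83-fold (log2 -0.87 ± 0.155 SE, adjusted p = 0.0259 by edgeR). The histone chaperone subunit Chaf1a fell 1.42-fold (log2 -0.51 ± 0.115), a call kept in 4 of 12 alternatives. Its partner Chaf1b had 18.8, 18.9 and 18.9 CPM in the controls and 17.4 and 14.0 CPM under H2O2, a change of -0.29 ± 0.120 that was not called.

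Other genes of replication were read from lists that hold no member. Of 33 further replication factors, 13 fell and 1 rose, with a median of -0.31. The lowest p values among the decreases belonged to Ticrr, which loads Cdc45 (log2 -1.29 ± 0.190), Dtl, a ligase subunit that destroys Cdt1 (-1.15 ± 0.174), and the fork-protection gene Timeless (-1.12 ± 0.184). The 1 increase was Top1, the topoisomerase that relaxes DNA, by 0.41 ± 0.0687, and the next lowest p of a positive change was that of Pole4 (0.13 ± 0.100, not called). Of 10 further nucleotide genes none was called (median -0.30), with Dctpp1 at -0.46 and Dck at -0.27. Of 11 further chromatin genes 2 fell, Asf1b by 1.17 and Mms22l by 0.66, and the methyltransferase gene Dnmt1 stood at -0.13 ± 0.0888.

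Of 33 genes that control G1 and entry into S phase, 8 fell and none rose, with a median of -0.14. The lowest p values were those of Cdkn2c, an inhibitor of Cdk4 and Cdk6 (log2 -1.13 ± 0.150), Cdk2 (-0.50 ± 0.0776) and the pocket protein gene Rbl1 (-0.54 ± 0.0920). Ccna2, the cyclin of S and G2 phase, fell by 1.68 ± 0.284. E2f1 stood at -0.32 ± 0.109, Rb1 at 0.30 ± 0.0825 and Ccnd1 at 0.19 ± 0.0898, and the p21 gene Cdkn1a at 0.26 ± 0.156, none called. For Cdkn1a, set A gave 0.66 against -0.05 for set B. Of the other E2F genes, E2f2 fell by 0.72 ± 0.13 (adjusted p = 0.0273 by edgeR), and E2f3 to E2f8 were not called. Among the uncalled, E2f7 stood at -1.12 ± 0.287 (adjusted p = 0.0602 by edgeR) and E2f8 at -0.39 ± 0.206, with E2f3 to E2f6 from -0.17 to 0.04. The 20 mitosis genes all fell by at least 1 on the log2 scale, with a median of -1.65 against -0.61 for the replication genes. Nusap1, Aurkb and Plk1 had the lowest p values among them, Top2a fell by 1.49 and Mki67 by 1.39. The gap between the lists is given as a description and was not tested.

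Markers of other cells also differed between libraries, in patterns of their own. Summed over 7 progenitor markers, CPM stood at 103.9, 51.4 and 65.5 in control replicates 1 to 3 and at 67.5 and 41.9 in H2O2 replicates 1 and 2, with 1 of 7 lower (Flt3, also among the dendritic markers) and none at 0. This sum was highest in control replicate 1, like that of the replication genes. Mast cell and basophil markers ran the other way between the sets, with 7 of 8 lower in set A, and summed to 34.8, 59.4 and 85.5 CPM in the controls and to 11.3 and 26.9 CPM under H2O2, with 5 of 8 lower (Prss34, Mcpt8, Cpa3, Fcer1a and Ms4a2). Kit, which both lists hold, was not called. Neutrophil and granulocyte precursor markers summed to 97.5, 289.0 and 526.7 CPM and to 103.4 and 522.1 CPM, with 3 of 10 tested lower under H2O2 (Mpo, Ctsg and Ms4a3) and 8 of 10 lower in set A. Their sum was not lower under H2O2 in set A, and in set B it lay between those of control replicates 2 and 3. Macrophage and monocyte markers summed to 3038 to 3351 CPM in the controls and 3558 to 3937 CPM under H2O2, with 2 of 11 tested lower and 1 higher. Of 4 eosinophil markers 3 were lower and 1, Ear6, higher (sums of 32.0 to 58.5 CPM in the controls, 24.3 and 32.0 CPM under H2O2). Siglecf made up most of each sum, and Prg2, Epx and Ear6 were scarce, at most 4.51 CPM in any library. B, T and natural killer cell markers summed to at most 5.56 CPM and erythroid markers to at most 0.976 CPM in any library. The part of these cells in the changes of the replication genes was not tested.

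**Figure D4:**
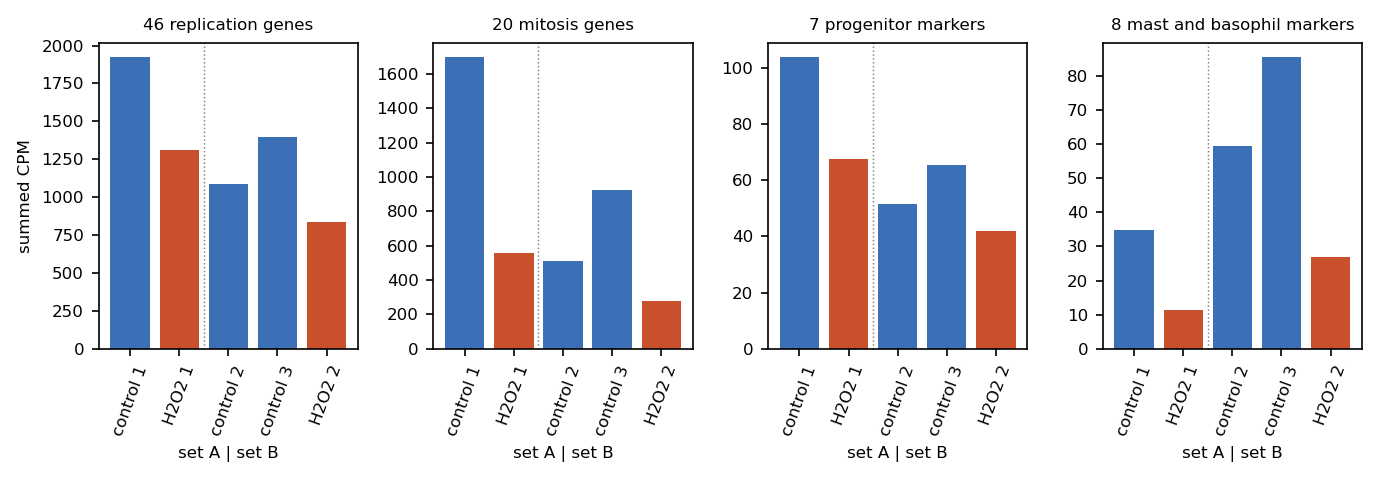
Summed CPM (y axes from 0) in each library for the 46 replication genes, 20 mitosis genes, 7 progenitor markers and 8 mast cell and basophil markers, with set A left and set B right of the dotted line; blue bars are controls and orange bars H2O2. In each panel the H2O2 bar is below the control bars of its set, and control 1 is the highest bar except for the mast cell and basophil markers.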

How the data were processed

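What the authors deposited is an estimated count per gene, headed as a read count per the file headers. No scaling shows in it, and 8.38% to 9.03% of values per library were not whole. HISAT, Bowtie2 and GRCm38.p6 stand in the submitters' processing notes, without roles. Counter, annotation and strand setting: not given in the sources used here. In the RefSeq gene table (GRCm38.p6), 13 of the 46 genes overlap another protein-coding gene. Symbols matched 17520 of 17567 rows (99.73%), and the remaining rows held 0.14% of the counts.

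Counts were rounded and filtered with edgeR's filterByExpr (minimum count 10, minimum total 15), leaving 12209 genes. They were scaled by TMM and tested by quasi-likelihood with a set term, at least 100 Y-linked counts placing a library in set A (2 residual degrees of freedom). P-values were Benjamini-Hochberg adjusted over all 12209 genes. Standard errors are the absolute log2 change over the square root of F, and CPM is TMM-scaled except for Y-linked sums. The member with fewest counts in any library had 34. Counts per kb used merged GENCODE M21 basic exons. The script was tested on simulated data. Fits ran in edgeR 4.0.16 under R 4.3.3. Alternatives were DESeq2 1.42.0, limma-voom (limma 3.58.1), RLE factors, other filters, no set term, a replicate block and each library left out.

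The members, lists and set term were chosen with earlier results of these data known. Given in full within each role are the genes with the lowest p, highest CPM, largest decrease and highest p, and in each other list the 3 of lowest p each way plus 7 fixed genes. Other members, and Orc2 to Orc5, Cdc7, Rfc1, Rrm2b, Dnmt1 and Pole4 as their partners, were named after their values were seen. So were E2f2 to E2f8 and Ccr7. Among all these, Orc2, Rrm2b and Pole4 also fall under the rule by their p. One gene that this rule names is not reported here.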

Additional observations from a re-analysis of the deposited data

How the results depend on the processing

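The direction of the replication genes was stable in the settings tried: at least 44 of the 46 log2 changes were negative in each of 12 alternatives. Only Gins4 and Pcna turned sign, Gins4 to 0.0244 without the set term, 0.0288 with the replicate block, 0.0197 without control replicate 3 and 0.0964 without H2O2 replicate 2 (-0.221 to 0.0964 with 1 library left out), and Pcna to 0.00873 without the set term. The calls were not stable. Of all genes, 1043 were called with the set term, 0 without it (853 at an unadjusted p under 0.05), 102 with no filter on low counts and 554 with the replicate block. Members called lower numbered 24, against 0 without the set term, 0 with no filter and 18 with the replicate block, of which 16 were among the 24. Leaving out 1 library gave 1 (H2O2 replicate 2) to 2064 (control replicate 1) genes and 0 to 26 members called. Members called between the sets numbered 32, and 19 (without H2O2 replicate 2) to 32 with 1 library left out, and 20 without control replicate 1. Without either library of set A the fit compares only H2O2 replicate 2 with control replicates 2 and 3. Shared replicate numbers leave 2 pairs, 1 in each set, and the correlation of deviations was 0.81 and 0.714 in them, too few pairs to show pairing. The interaction could not be fitted with a library left out. Limma-voom, RLE factors and the stricter filter called the same 24 members. DESeq2 also called 24, of which 21 were shared: Pola2, Rfc4 and Chaf1a were lost (adjusted p 0.0725, 0.0765 and 0.0506) and Mcm6, Mcm7 and Prim1 gained (0.0012, 0.00121 and 0.0486). The cause of these shifts was not tested. With 3 against 2 libraries an exact permutation test cannot go below 0.1.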
